A study of Mus musculus with 8 samples.

Results

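The 9 genes of this set encode G protein-coupled receptors for neuropeptides and lipid mediators, or the partner proteins of such receptors, and were examined in murine lung group 2 innate lymphoid cells (ILC2s) after activation of the mechanosensitive channel Piezo1. The 9 genes were chosen by name, as the rows Nmur1, Vipr2, Calcrl, Ramp1, Ramp3, Ptgdr2, Ptgir, Ptger4 and Cysltr1 among the 23183 gene symbols counted in every library. Earlier results of these data were known when they were chosen, so the share called among them is not that of a blind choice. Of the 9, 8 had enough counts to be tested, among 12239 genes tested in all. Cultured lung ILC2s gave 8 bulk mRNA-seq libraries, of which 4 had received Yoda1, which opens Piezo1, at 5 µM and 4 the vehicle DMSO at 0.1%, each for 3 h. All cells were wild type, from mice of the strain C57BL/6 (C57BL/6 J in the study's methods), of both sexes aged 6 to 10 weeks. Both groups shared their history: the mice had received recombinant IL-33, lung ILCs were enriched with magnetic beads, and the cultures held IL-2, IL-7 and IL-33 at 10 ng/mL each. Receptor levels therefore describe cells already activated in vivo and in culture, and cells enriched on beads rather than sorted from untreated lung. The labels do not say whether the 4 libraries of a group came from separate mice or from cultures of 1 pool, so p-values measure only the spread between these libraries, which may be technical.

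ILC2s are tissue-resident lymphocytes that lie close to nerve endings and mast cells, and receptors for neuropeptides and lipids let them respond to both. Neuromedin U and vasoactive intestinal peptide are known to activate them, whereas calcitonin gene-related peptide (CGRP), prostaglandin I2 and prostaglandin E2 are known mainly to restrain their cytokine output. Prostaglandin D2 and the cysteinyl leukotrienes, products of mast cells, attract and activate them. Most of these receptors signal through a stimulatory G protein and cyclic AMP or through Gq and calcium.

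The promoters of the receptor genes that changed are printed first, because cyclic AMP acts on genes through CREB and calcium through NFAT, and the letters these factors are known to prefer can be looked up. The sequences came from RefSeq on GRCm38.p6, and each runs 5′ to 3′ on the gene's own strand from 250 bases before to 50 bases after an annotated start. Of the 9 genes, 8 (all but Cysltr1) were matched in that table of 32851 promoters. Capitals mark GGAAA, the core letters of NFAT sites, or TGACG, the shortest part of a cyclic AMP response element, on either strand, so that TTTCC and CGTCA are the same letters read from the other strand. The Calcrl window lies at chr2:84425217-84425516 on the minus strand, the Ramp1 window at chr1:91179572-91179871 on the plus strand, the Vipr2 window at chr12:116077476-116077775 on the plus strand, and the window of the first of the 2 Nmur1 starts at chr1:86389312-86389611 on the minus strand.
Calcrl: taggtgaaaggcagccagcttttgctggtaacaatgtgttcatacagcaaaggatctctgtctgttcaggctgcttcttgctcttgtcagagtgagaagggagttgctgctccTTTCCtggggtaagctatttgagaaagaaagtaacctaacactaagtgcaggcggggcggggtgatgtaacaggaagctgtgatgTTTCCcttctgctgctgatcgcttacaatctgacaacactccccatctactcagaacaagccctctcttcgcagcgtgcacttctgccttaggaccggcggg
Ramp1: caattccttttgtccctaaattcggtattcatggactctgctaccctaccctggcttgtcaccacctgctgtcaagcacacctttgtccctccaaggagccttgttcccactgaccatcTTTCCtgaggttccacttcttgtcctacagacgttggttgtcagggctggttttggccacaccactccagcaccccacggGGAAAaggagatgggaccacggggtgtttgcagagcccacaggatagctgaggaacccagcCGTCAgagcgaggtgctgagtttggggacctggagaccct
Vipr2: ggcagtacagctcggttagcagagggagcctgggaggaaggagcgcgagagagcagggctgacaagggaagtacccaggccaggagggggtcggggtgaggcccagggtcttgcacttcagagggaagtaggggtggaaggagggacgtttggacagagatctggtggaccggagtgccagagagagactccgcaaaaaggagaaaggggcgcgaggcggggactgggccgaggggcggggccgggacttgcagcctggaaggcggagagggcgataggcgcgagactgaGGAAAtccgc
Nmur1: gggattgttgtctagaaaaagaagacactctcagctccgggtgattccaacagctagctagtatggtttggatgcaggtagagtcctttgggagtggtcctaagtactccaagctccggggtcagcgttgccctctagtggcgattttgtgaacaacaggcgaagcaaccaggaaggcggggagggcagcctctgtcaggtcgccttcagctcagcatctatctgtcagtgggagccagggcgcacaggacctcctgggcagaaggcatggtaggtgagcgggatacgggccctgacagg
The Calcrl window held the GGAAA core at 2 places, the Ramp1 window at 2 and the Vipr2 window at 1, and the Nmur1 window shown held none, while that of the second Nmur1 start, also inside the gene, held it at 2 places. Of the members without a call, the Ptgdr2, Ptgir and Ptger4 windows held it at 2 places each and the Ramp3 window at 0. These letters are common, being present in 61.3% of all promoters in the table. Among the 8 matched receptor genes, 1 window, that of Ramp1, held TGACG, which is present in 20.8% of all promoters. None of the receptor windows held the AP-1 letters TGANTCA, the NR4A letters AAAGGTCA or the EGR letters GCGTGGGCG, which occur in 7.81%, 1.51% and 0.612% of promoters. A match is a description of these letters only.

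Total counts per library ran from 12438009 to 19534653, so 1 count was worth between 0.0514 and 0.0807 CPM (counts relative to the library total, scaled by TMM factors that correct for library composition). Of the ILC2 markers, 10 of 10 were detected and tested, with a summed level of 8366 to 8754 CPM in DMSO libraries and 8861 to 9316 CPM in Yoda1 libraries. With Yoda1, 3 of them were higher by edgeR (Il1rl1, the IL-33 receptor, Thy1 and Areg) and 1, Icos, was lower, beside 6.04% and 4.84% of all genes. At most 3 counts in every library were found for 3 of 8 macrophage and dendritic cell genes and 5 of 6 eosinophil genes. The same held for 4 of 6 endothelial genes and 2 of 6 stromal and epithelial genes. In this order, 3, 1, 1 and 1 genes of these lists had enough counts to be tested. Among the low genes, named after their values were seen, Marco, Ear2, Ear6 and Sftpc had 0 counts in every library. Lyz2, Epx, Cldn5, Tek and Vwf had at most 1 count, and Cdh5 at most 3. Over whole lists, the summed level of 8 macrophage and dendritic cell genes went from 26.6 to 28.5 CPM in DMSO and from 32.7 to 38.1 CPM in Yoda1. Of the 3 tested, 1, Xcr1, was higher by edgeR, beside 6.04% of all genes. For 5 NK cell genes the summed level went from 755 to 834 and from 803 to 867 CPM. Of these, 2, Eomes and Prf1, were higher by edgeR, beside the same 6.04%. For 6 T cell genes it went from 69.8 to 77.5 and from 75.2 to 84.8 CPM, and none passed by edgeR (1 at an unadjusted p under 0.05). The part of these cells in the receptor values was not tested. In bulk RNA, fewer cells of a type and less RNA per cell cannot be told apart.

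Yoda1 was followed by small shifts in the peptide receptors and by no called change in the lipid receptors of the set. Calcrl, Ramp1 and Vipr2 rose and Nmur1 fell, with the largest change 1.30-fold. Of the 8 receptor genes tested, 4 passed an adjusted p of 0.05 (edgeR quasi-likelihood test, Benjamini-Hochberg over 12239 genes), beside 10.9% of all genes. Of the 4, 3 were higher, beside 6.04% of all genes, and 1 was lower, beside 4.84%. For 2 of the 8, Calcrl and Nmur1, the Yoda1 and DMSO libraries did not overlap, beside 15.5% of all genes. The median log2 fold change of the 8 was 0.025, and that of all genes tested was -0.0053. All of the calls lay in the 5 peptide receptor genes, 4 of which passed, and none of the 3 tested lipid receptor genes passed, of which 1 had an unadjusted p under 0.05. DESeq2 called 2 of the 8, Calcrl and Nmur1, as did edgeR with upper-quartile factors.

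**Figure D1:**
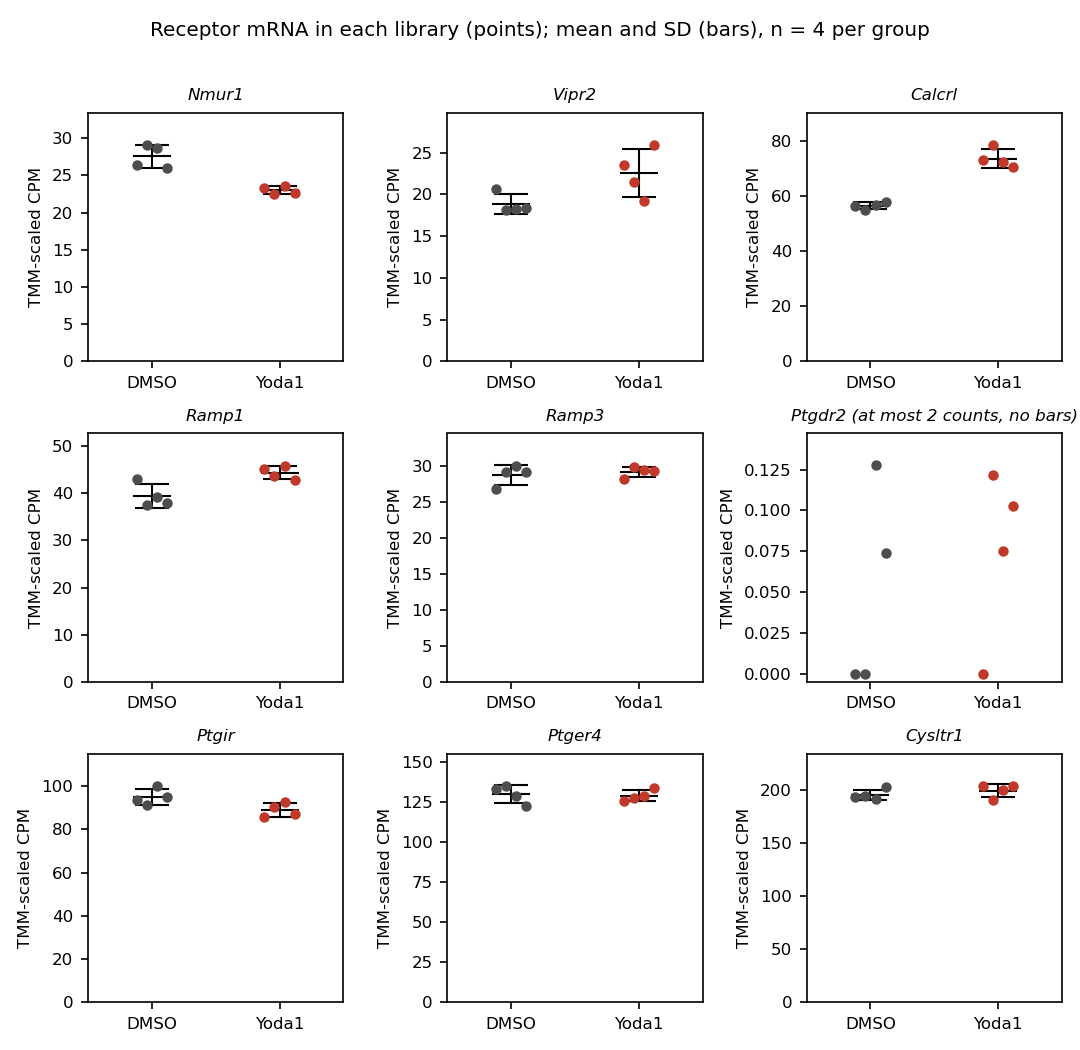
TMM-scaled CPM (vertical axis, its own scale in each panel, from 0 or, for Ptgdr2, just below it) of the 9 receptor genes in each of the 4 DMSO and 4 Yoda1 libraries. Points are libraries and bars are the mean and SD, with no bars for Ptgdr2. The Calcrl points of Yoda1 (70.6 to 78.4 CPM) sit above all DMSO points and those of Nmur1 (22.5 to 23.5 CPM) below, while the points of the other genes overlap.

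Calcrl changed most. It encodes the calcitonin receptor-like receptor, a receptor of the Gs-coupled class B family that reaches the cell surface only with a RAMP partner. The gene lies on chromosome 2 at positions 84330626 to 84425411 of GRCm38, on the minus strand, with 16 exons in the transcript used. Calcrl was at 56.4, 54.8, 56.9 and 57.9 CPM in DMSO replicates 1 to 4 and at 73.1, 78.4, 72.4 and 70.6 CPM in Yoda1 replicates 1 to 4. Every Yoda1 library lay above every DMSO library, with a gap wider than the range within the DMSO group. The means were 56.5 ± 1.30 and 73.6 ± 3.37 CPM (SD, n = 4 each), so Yoda1 raised the mRNA 1.30-fold (log2 fold change 0.38, standard error 0.046, 95% interval 0.29 to 0.48, edgeR adjusted p = 5.91e-07). The value stayed between 0.35 and 0.40 when any 1 library was left out.

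Calcrl is also known from endothelial cells. Of the endothelial marker genes, Cldn5, Tek and Vwf had 0 or 1 count per library, Cdh5 0 to 3 and Kdr 0 to 8. The summed level of the 6 endothelial genes was 212 to 226 CPM in DMSO and 217 to 221 CPM in Yoda1, almost all of it Pecam1, which is also expressed by leukocytes and changed by -0.0073 on the log2 scale (edgeR adjusted p = 0.927). Calcrl itself had 784 to 1372 counts per library, and the part of endothelial cells in its change was not tested.

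Ramp1 and Ramp3 encode the single-pass partners that decide what the Calcrl protein binds. With RAMP1 it forms the CGRP receptor, and with RAMP2 or RAMP3 it forms adrenomedullin receptors. Ramp1 (chromosome 1, 91179822 to 91225196, plus strand, 3 exons) was at 43.1, 37.6, 39.3 and 37.9 CPM with DMSO and 45.1, 43.7, 45.8 and 42.9 CPM with Yoda1. DMSO replicate 1 stood above the other DMSO libraries and above Yoda1 replicate 4, so the groups overlapped. Ramp1 rose from 39.5 ± 2.53 to 44.4 ± 1.32 CPM (SD, n = 4 each), which is 0.17 on the log2 scale (standard error 0.054, 95% interval 0.055 to 0.28, edgeR adjusted p = 0.0452). This call held without DMSO replicate 1 (0.21, edgeR adjusted p = 0.00844) and was lost without any of the other 7 libraries, at a log2 fold change of 0.14 to 0.18 (edgeR adjusted p 0.0627 to 0.157). It was also lost with DESeq2 (0.17, adjusted p = 0.0775).

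Ramp3 (chromosome 11, 6658521 to 6677475, plus strand, 3 exons) was at 26.8, 29.1, 29.99 and 29.2 CPM with DMSO and 28.2, 29.9, 29.4 and 29.3 CPM with Yoda1. All 4 Yoda1 values lay within the DMSO range. Its means were 28.8 ± 1.38 and 29.2 ± 0.723 CPM (SD, n = 4 each), and the log2 fold change was 0.022 with a 95% interval of -0.10 to 0.14 (edgeR adjusted p = 0.865). An exon of Ramp3 overlaps the opposite-strand gene Gm11978 over 101 bases. Ramp2, the other adrenomedullin partner, had 1 to 11 counts per library and was too low to test, and it shares 1103 exon bases with Vps25 on the same strand.

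The balance of the subunits within a library does not depend on library scaling. Both ratios to Calcrl largely restate its rise given above, and are not independent of it or of each other. Only the ratio of Ramp3 to Ramp1 leaves Calcrl out. Per kilobase of transcript, Ramp1 stood to Calcrl at ratios of 1.61, 1.44, 1.45 and 1.37 with DMSO and of 1.30, 1.17, 1.33 and 1.28 with Yoda1. The ratio was lower in every Yoda1 library than in every DMSO library. The difference was -0.21 on the log2 scale (exact two-sided permutation of the libraries, p = 0.0286, which 4 against 4 cannot go below, adjusted p = 0.0429 over the 3 ratios tested). Ramp3 to Calcrl was 1.88, 2.10, 2.09 and 1.99 with DMSO and 1.53, 1.51, 1.61 and 1.64 with Yoda1. These groups did not overlap either, and the difference was -0.36 on the log2 scale (two-sided exact permutation test, p = 0.0286, adjusted p = 0.0429). Both calls were lost without Yoda1 replicate 2 or without Yoda1 replicate 4 (exact permutation tests, adjusted p = 0.0857), where the differences were -0.17 and -0.21 for Ramp1 and -0.34 and -0.38 for Ramp3. The groups still did not overlap in these runs. With 3 against 4 libraries the exact p cannot go below 0.0286 and moves in coarse steps. Ramp3 to Ramp1 was 1.17, 1.46, 1.44 and 1.45 with DMSO and 1.18, 1.29, 1.21 and 1.29 with Yoda1, a difference of -0.15 on the log2 scale (two-sided exact permutation test, p = 0.143, adjusted p = 0.143). There DMSO replicate 1 lay below all of the Yoda1 libraries and the other 3 DMSO libraries above them, and without it the difference was -0.23 (exact permutation test, adjusted p = 0.0286). That p follows from removing the library seen to make the groups overlap, so no conclusion is drawn from it. Without any other single library the adjusted p was 0.143 to 0.343 (exact permutation tests).

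**Figure D2:**
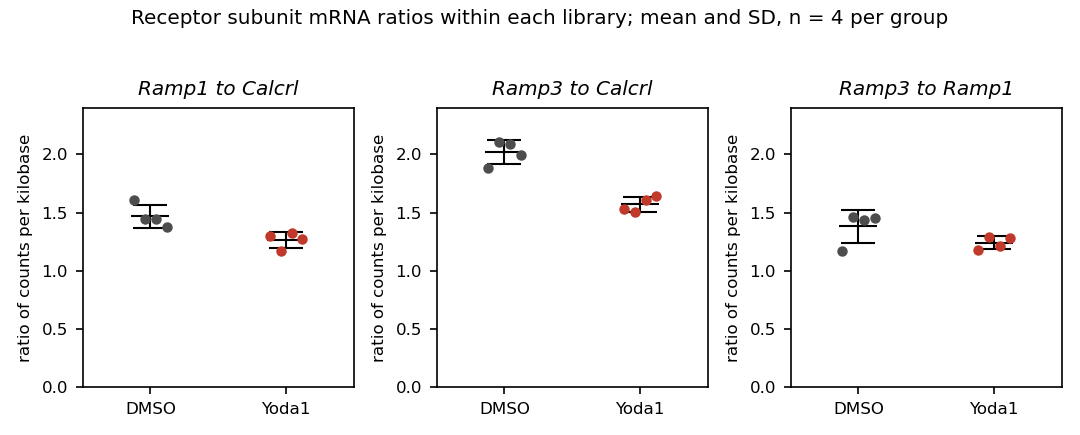
Ratio of counts per kilobase between receptor subunit mRNAs (vertical axis, from 0, no unit) within each DMSO and Yoda1 library, with points for libraries and bars for the mean and SD of 4. The ratios of Ramp1 to Calcrl and of Ramp3 to Calcrl are lower in all Yoda1 libraries (at most 1.33 and 1.64) than in all DMSO libraries (at least 1.37 and 1.88), and the ratios of Ramp3 to Ramp1 overlap through DMSO replicate 1 at 1.17.

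Vipr2 encodes VPAC2, a Gs-coupled receptor for vasoactive intestinal peptide and PACAP. The gene lies on chromosome 12 at 116077726 to 116146261, on the plus strand, with 13 exons. Vipr2 was at 20.7, 18.1, 18.2 and 18.3 CPM with DMSO and 23.6, 21.5, 19.2 and 25.9 CPM with Yoda1. Yoda1 replicate 3 lay below DMSO replicate 1, and the other 3 Yoda1 libraries lay above the whole DMSO group. The means were 18.8 ± 1.22 and 22.5 ± 2.86 CPM (SD, n = 4 each), or 1.20-fold more mRNA with Yoda1 (log2 fold change 0.27, standard error 0.081, 95% interval 0.10 to 0.43, edgeR adjusted p = 0.0301). The call was lost without DMSO replicate 2, 3 or 4 or without Yoda1 replicate 1 or 4, with log2 fold changes of 0.18 to 0.26 (edgeR adjusted p 0.0739 to 0.200), the lowest without Yoda1 replicate 4. It was also lost with DESeq2 (0.27, adjusted p = 0.0509). Vipr1, which encodes the other VIP receptor, had 0 to 3 counts per library.

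Nmur1 encodes the Gq-coupled receptor for neuromedin U and was the only member called lower by edgeR. It lies on chromosome 1 at 86386303 to 86426228, on the minus strand, with 3 exons in the transcript used. Nmur1 was at 26.4, 29.0, 28.7 and 26.0 CPM with DMSO and 23.3, 22.5, 23.5 and 22.6 CPM with Yoda1. All 4 Yoda1 libraries lay below all 4 DMSO libraries and close to each other. It fell from 27.5 ± 1.55 to 23.0 ± 0.519 CPM (SD, n = 4 each), to 0.832 of its level, a log2 difference of -0.27 (standard error 0.064, 95% interval -0.40 to -0.14, edgeR adjusted p = 0.00602). Leaving out any 1 library kept the fall between -0.29 and -0.24. Nmur2, for the other neuromedin U receptor, had 0 counts in every library, which allows up to 3 counts, or 0.154 to 0.242 CPM.

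Within single libraries, Nmur1 stood to Vipr2 per kilobase at 3.36, 4.21, 4.14 and 3.73 with DMSO and at 2.60, 2.76, 3.22 and 2.29 with Yoda1. The 2 groups did not overlap, and the difference of the means was -0.51 on the log2 scale. This ratio was chosen after both genes' values were seen and was not tested. Its size depends on the length used, since the Nmur1 transcript used carries almost no untranslated sequence. Per coding kilobase, Nmur1 had means of 21.4 CPM with DMSO and 17.9 CPM with Yoda1, and Vipr2 had 14.4 and 17.2 CPM.

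Among the lipid receptors, Ptgdr2 encodes CRTH2, the prostaglandin D2 receptor by which ILC2s are recognised in humans. It lies on chromosome 19 at 10937160 to 10942511, on the plus strand. It had 0, 0, 2 and 1 counts in the DMSO libraries and 0, 2, 1 and 2 counts in the Yoda1 libraries, at or under the floor of 3 counts in each. No fold is given, since a difference was not detectable at this depth, and 1031 bases of its exons overlap the opposite-strand gene Ccdc86. Ptgdr, for the other prostaglandin D2 receptor, had 6 to 17 counts per library and a log2 fold change of 0.071 with a 95% interval of -0.63 to 0.77 (edgeR adjusted p = 0.928).

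Ptgir encodes the prostaglandin I2 (prostacyclin) receptor, which couples to Gs. It lies on chromosome 7 at 16906490 to 16910905, on the plus strand. Ptgir was at 93.4, 91.3, 99.8 and 94.8 CPM with DMSO and 85.7, 90.1, 92.7 and 87.0 CPM with Yoda1. Of the Yoda1 libraries, 3 lay below the whole DMSO group, and Yoda1 replicate 3 lay above DMSO replicate 2. The means were 94.8 ± 3.61 and 88.9 ± 3.16 CPM (SD, n = 4 each), with a log2 fold change of -0.094 (95% interval -0.18 to -0.0073). With an unadjusted p of 0.0346 and an edgeR adjusted p of 0.161, it did not pass.

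Ptger4 encodes EP4, a Gs-coupled prostaglandin E2 receptor. It lies on chromosome 15 at 5206661 to 5244187, on the minus strand. Ptger4 was at 133, 135, 129 and 123 CPM with DMSO and 126, 127, 129 and 134 CPM with Yoda1. The Yoda1 values lay inside the DMSO range, with a log2 fold change of -0.012 and a 95% interval of -0.093 to 0.069 (edgeR adjusted p = 0.894). Its exons overlap the opposite-strand genes Gm15937 over 1015 bases and Ttc33 over 82 bases. Ptger2, for the Gs-coupled EP2 receptor that binds the same lipid, was at 40.1, 45.6, 42.3 and 39.7 CPM with DMSO and 50.6, 50.3, 48.4 and 50.3 CPM with Yoda1. It rose in every library comparison, by 0.25 on the log2 scale (standard error 0.052, edgeR adjusted p = 0.00173). Per kilobase, Ptger2 stood to Ptger4 at 0.266, 0.30, 0.290 and 0.287 with DMSO and 0.357, 0.350, 0.333 and 0.333 with Yoda1, a ratio chosen after these values were seen and not tested. Ptger1, for EP1, had a log2 fold change of -0.0063 (95% interval -0.11 to 0.099, edgeR adjusted p = 0.956), and its count is uncertain, as for the other genes with overlapping exons. Ptger3, for EP3, had 6 to 16 counts per library and a log2 fold change of -0.37 (95% interval -1.08 to 0.33, edgeR adjusted p = 0.547).

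Cysltr1 encodes the main receptor for leukotriene D4, which couples to Gq and calcium. It lies on chromosome X at 106574346 to 106603679, on the minus strand, with 4 exons. Cysltr1 was at 193, 194, 192 and 202 CPM with DMSO and 203, 190, 199.97 and 203 CPM with Yoda1. The lowest of all 8 libraries was a Yoda1 library and so was the highest, and the log2 fold change was 0.028 with a 95% interval of -0.047 to 0.10 (edgeR adjusted p = 0.689). Cysltr2, for the other cysteinyl leukotriene receptor, was at 79.6, 80.3, 86.1 and 84.3 CPM with DMSO and 93.5, 94.97, 89.3 and 94.6 CPM with Yoda1. All Yoda1 libraries lay above all DMSO libraries, and the rise was 0.18 on the log2 scale (standard error 0.042, edgeR adjusted p = 0.00605). Cysltr2 to Cysltr1 per kilobase was 1.20, 1.21, 1.31 and 1.22 with DMSO and 1.35, 1.46, 1.30 and 1.36 with Yoda1, where 1 Yoda1 library lay below 1 DMSO library. This ratio too was chosen after the values were seen and was not tested.

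**Figure D3:**
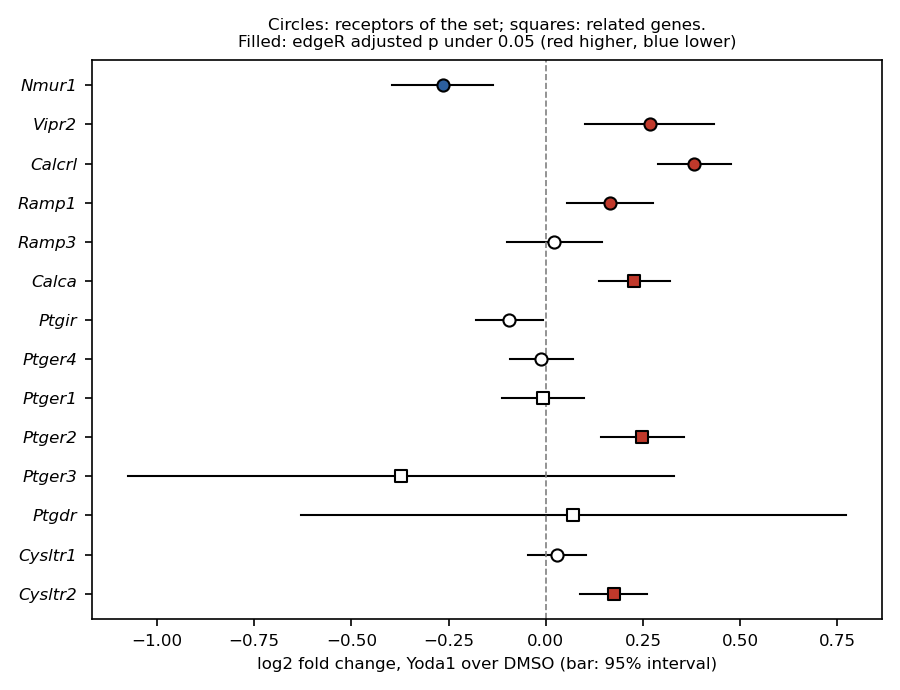
Log2 fold change of Yoda1 over DMSO (horizontal axis) with its 95% interval for the 8 tested receptor genes of the set (circles), other receptors of the same ligands and the CGRP gene Calca (squares), filled where the edgeR adjusted p was under 0.05. Calcrl (0.38), Vipr2 (0.27), Ramp1 (0.17), Ptger2 (0.25), Cysltr2 (0.18) and Calca (0.23) lie to the right and Nmur1 (-0.27) to the left, and the intervals of Ramp3, Ptger4 and Cysltr1 span 0.

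Levels of different genes were compared per kilobase of transcript. In this order, Ptger4 had a mean of 39.6 CPM per kilobase over the 8 libraries and Cysltr1 one of 38.3, and the ranges of these neighbours overlapped. Ptgir followed at 27.8, then Ramp3 at 23.5, Nmur1 at 19.6 and Ramp1 at 18.04. Over all libraries the range of Nmur1 overlapped those of Ramp3 and of Ramp1. Within DMSO, Nmur1 (20.2 to 22.6) overlapped Ramp3 (21.7 to 24.3) and lay above Ramp1 (16.2 to 18.5). Calcrl followed at 13.3, Vipr2 at 6.11 and Ptgdr2 at 0.0237, each below its neighbour in every library. With Yoda1, Nmur1 had a mean of 17.9 CPM per kilobase and Ramp1 one of 19.1, the opposite order of that in DMSO (21.4 and 17.0). The order depends on the length used: by coding length, 2 of the 9 genes kept their rank, and Cysltr1 came first at 187, then Ramp1 at 94.4 and Ptger4 at 84.1 CPM per coding kilobase. The Nmur1 transcript used has 1287 bases, of which 1284 are coding, so it carries almost no untranslated sequence, unlike that of Calcrl with 4882 and 1389 bases.

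**Figure D4:**
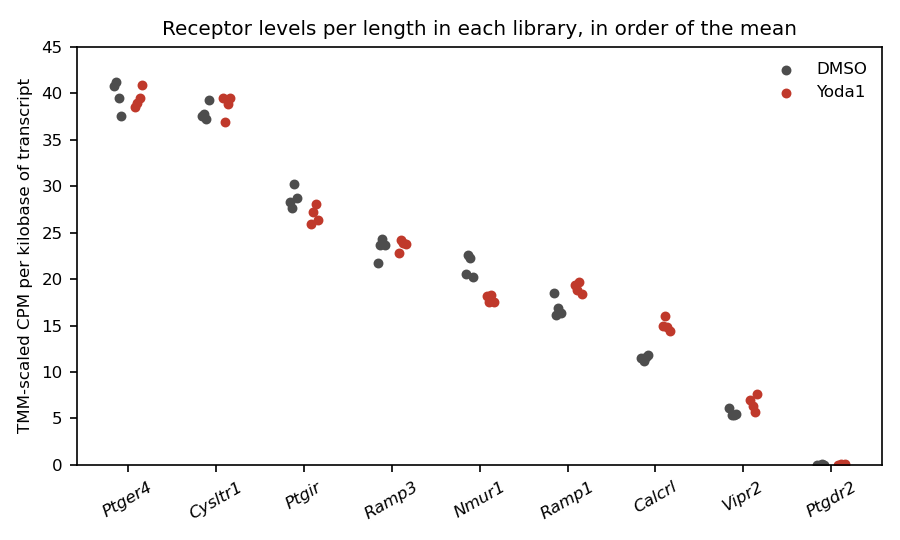
Level of each receptor gene per kilobase of transcript (vertical axis, TMM-scaled CPM per kilobase) in the 4 DMSO and 4 Yoda1 libraries (points), ordered by the mean. Ptger4 and Cysltr1 share the top at 37.0 to 41.3, Vipr2 lies at 5.36 to 7.65, and Ptgdr2 lies at or near 0.

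In all, 95 other genes of receptors for neuropeptides, neurotransmitters, prostanoids, other lipids and a few further ligands, or of receptor partner proteins, were listed for comparison. Of these, 34 were tested and 48 were at or under the floor. Of the 34, 8 passed, or 23.5% beside 10.9% of all genes. They were 4 higher and 4 lower with Yoda1 (6.04% and 4.84% of all genes), and the median log2 fold change of the 34 was -0.046. DESeq2 called 5 of the 8 (Ptger2, Cysltr2, Gpr174, Gpr65 and P2ry14) and no other. Neither of the 2 tested genes on the neuropeptide receptor list passed (edgeR, 1 of them at an unadjusted p under 0.05). These 2 were Crcp and Galr3. Crcp encodes a CGRP receptor component protein, not a receptor itself, and was at 28.4 ± 2.86 and 27.2 ± 1.63 CPM (SD, n = 4 each) with DMSO and Yoda1. Galr3, a galanin receptor, was at 2.29 ± 0.522 and 1.48 ± 0.320 CPM and shares 363 exon bases with Gcat on the same strand. None of the 8 tested neurotransmitter receptor genes passed by edgeR (1, Hrh2, at an unadjusted p under 0.05, named after its value was seen). The highest by mean CPM over the 8 libraries were Htr1b, a serotonin receptor, at 9.05 and 9.46 CPM with DMSO and Yoda1, and Adra1b, an alpha-1 adrenergic receptor, at 5.46 and 5.89 CPM.

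Among 5 tested prostanoid receptor genes outside the set, Ptger2 passed. Of 19 tested genes on the list of receptors for leukotrienes and other lipids, 7 passed, 3 higher and 4 lower, or 36.8% beside the 10.9% of all genes. This list also holds receptors of other ligands, among them the called genes Gpr65 and P2ry14, so the share is not that of lipid receptors alone. Gpr174, a lysophosphatidylserine receptor, rose from 8.97 ± 0.297 to 13.3 ± 0.888 CPM (SD, n = 4 each), by 0.57 on the log2 scale (edgeR adjusted p = 4.84e-05). Gpr65, a proton-sensing Gs-coupled receptor, rose from 39.2 ± 2.01 to 54.4 ± 3.13 CPM (SD, n = 4 each), by 0.47 on the log2 scale (edgeR adjusted p = 2.69e-07), and Cysltr2 was the other gene that rose. P2ry14, a receptor for UDP-glucose, fell by 0.25 on the log2 scale (edgeR adjusted p = 0.000158) and S1pr1, the sphingosine 1-phosphate receptor that guides lymphocytes out of tissue, fell by 0.19 (edgeR adjusted p = 0.0257). Cnr2, the cannabinoid CB2 receptor, fell by 0.41 (edgeR adjusted p = 0.0362). Gpr34, a further lysophosphatidylserine receptor, fell by 0.22 (edgeR adjusted p = 0.0431) and is named because it completes the 4. The calls of S1pr1, Gpr34 and Cnr2 were lost with DESeq2. They were also lost in 4, 5 and 7, in this order, of the 8 runs with 1 library left out. Cnr2 was lost with limma-voom too (adjusted p = 0.0520). The highest by mean CPM were Ltb4r1, the leukotriene B4 receptor, at 257 and 249.6 CPM with DMSO and Yoda1, and Gpr132 at 124 and 130.4 CPM, neither of which passed.

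Most of the ligand genes had too few counts to be tested, and 8 of 18 had at most 3 counts in every library. Nmu, Nms and Vip had 0 counts in all 8 libraries, Adcyap1 (PACAP) had 0 or 1, and Adm (adrenomedullin) and Calcb (the second CGRP gene) had 0 to 5. Of 18 ligand genes, 5 were tested and 2 passed, both higher with Yoda1, beside the 6.04% of all genes that were higher. Calca, which encodes calcitonin and CGRP, was at 65.4, 71.7, 73.1 and 66.7 CPM with DMSO and 83.3, 79.8, 82.3 and 79.6 CPM with Yoda1. It rose in all Yoda1 libraries over all DMSO libraries, by 0.23 on the log2 scale (standard error 0.045, edgeR adjusted p = 0.000881), and a count per gene does not separate its calcitonin and CGRP transcripts. Penk, the enkephalin precursor, rose from 36.9 ± 2.13 to 44.3 ± 2.05 CPM (SD, n = 4 each), by 0.26 on the log2 scale (edgeR adjusted p = 0.00160).

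Of 57 counted genes of G protein and cyclic AMP signalling, 50 were tested and 5 passed, 4 higher and 1 lower, which is 10% beside the 10.9% of all genes. Gnas, the stimulatory G protein alpha subunit to which Calcrl, VPAC2, EP4 and the prostacyclin receptor couple, rose from 597 ± 18.2 to 657 ± 8.19 CPM (SD, n = 4 each), by 0.14 on the log2 scale (edgeR adjusted p = 0.00735). Its exons overlap antisense genes of the imprinted locus such as Nespas. Adcy7, an adenylyl cyclase of leukocytes, rose from 361 ± 15.7 to 402 ± 14.05 CPM (SD, n = 4 each), by 0.16 (edgeR adjusted p = 0.00593). Crem, a gene that cyclic AMP induces, rose from 156 ± 6.78 to 187 ± 5.67 CPM (SD, n = 4 each), by 0.26 (edgeR adjusted p = 2.72e-05). Pde8a, a cyclic AMP phosphodiesterase, rose by 0.18 (edgeR adjusted p = 0.0496), a call lost with DESeq2 and without several single libraries, and Adcy5 fell by 0.24 (edgeR adjusted p = 0.0134). None of the 8 tested G protein-coupled receptor kinase and arrestin genes passed by edgeR (2 at an unadjusted p under 0.05) or DESeq2, with Adrbk1 at 464 and 462 CPM and Arrb1 at 222 and 207 CPM highest by mean CPM. The others with high counts were Gnai2, at 537 and 532 CPM, and Prkar1a, at 568 and 578 CPM, neither of which passed.

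**Figure D5:**
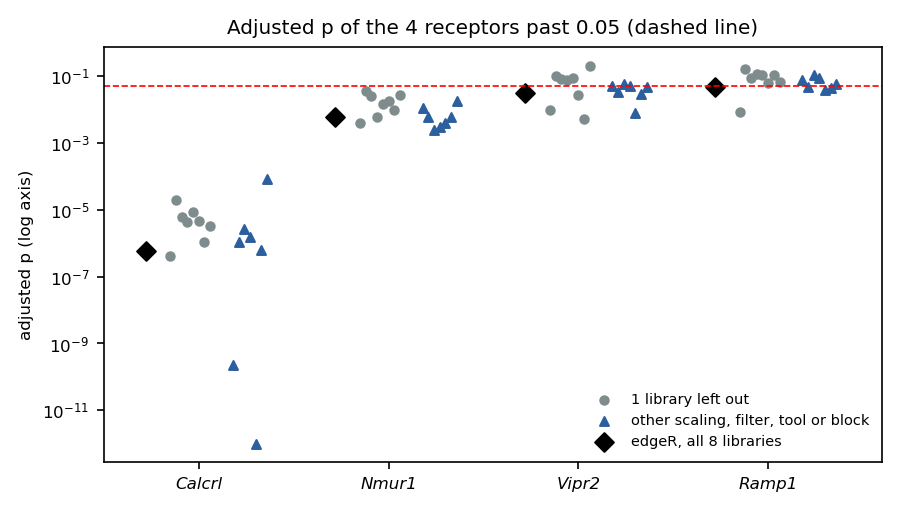
Adjusted p (vertical log axis) of the 4 receptor genes that passed, with all 8 libraries in edgeR (diamonds), with 1 library left out (grey circles) and with another scaling, filter, tool or the replicate block (blue triangles), the dashed line marking 0.05. All points of Calcrl and Nmur1 lie under the line, while Vipr2 and Ramp1 have points on both sides.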

How the data were processed

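Poly(A)-selected RNA of cultured murine lung ILC2s was sequenced as 8 libraries, 4 with Yoda1 and 4 with DMSO. For each library the authors deposited the raw counts of reads as whole numbers by gene symbol. Their methods name a directional library kit, FastQC, processing of the reads by FASTX Trimmer and BBMap, and then Cufflinks with Cuffdiff, while the submitters' processing notes name TopHat and mm10. The counter, annotation, strand setting and versions are not given in the sources used here, so reads of genes that overlap on opposite strands could have been shared.

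Groups were taken from the labels. In R 4.3.3, genes were filtered with filterByExpr (minimum count 10, minimum total 15), scaled with TMM and tested by edgeR 4.0.16 (glmQLFit, robust, and glmQLFTest) with Benjamini-Hochberg adjustment over all 12239 genes tested at 0.05. The standard error is the absolute log2 fold change divided by the root of F, and intervals are at 95%. Alternatives were DESeq2 1.42.0, limma-voom (limma 3.58.1), upper-quartile factors, unscaled library sizes, keeping every gene with a count, demanding 10 or more counts of all libraries, a replicate block, and leaving out each of the 8 libraries in turn. For the subunit ratios they were a pseudocount of 0.5 counts, a sign-flip test of the numbered pairs and each library left out, and for the order of levels the coding length. Two-sided exact permutation tests were used for the 3 ratios. The floor was 3 counts per library, and floors cover counting error only. Within each group the libraries differed by a chi-square per gene of 2.03 to 6.94, more than sampling noise, so all were kept. Positions, exons and lengths came from GENCODE M21 (GRCm38, the same assembly as mm10) for the principal transcript of each gene. The statistics were first tested on simulated data.

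The 9 members and the lists of related receptors, ligands, signalling genes and markers were chosen with earlier results of these data known. The text names all 9 members, other receptors of the same ligands, and of each other list the genes past the threshold, up to 6 with the smallest adjusted p, and the 2 with the highest mean CPM. Grk2 and Grk3 are listed under the symbols Adrbk1 and Adrbk2. The marker lists not described with the receptors were those of mast cells and basophils (summed CPM 5.76 to 7.61 with DMSO and 7.10 to 8.58 with Yoda1), eosinophils (2.38 to 2.73 and 2.01 to 3.00), B cells (5.32 to 7.07 and 5.54 to 7.20) and stromal and epithelial cells (1.50 to 2.44 and 1.34 to 2.42), with no gene past the threshold by edgeR and 1, in the mast cell and basophil list, at an unadjusted p under 0.05.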

Additional observations from a re-analysis of the deposited data

Results flagged for a closer look

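In 2 of 24 groups of 4 libraries examined, 1 library stood apart from the other 3 by Dixon's criterion for 4 values (the gap to the nearest library over the whole range), where chance gives about 1.2. Both were DMSO replicate 1. Its Vipr2 level, 20.7 CPM, was the highest of the DMSO group, with the nearest library at 18.3 CPM. Its log2 ratio of Ramp3 to Ramp1, 0.23, was the lowest of the group, with the nearest at 0.53. With that library left out, Vipr2 rose by 0.32 on the log2 scale (edgeR adjusted p = 0.00983) and the difference in the ratio was -0.23 (exact permutation test, adjusted p = 0.0286). Both values follow the removal of a library seen to stand apart, so no conclusion is drawn from them. Without any other single library, the adjusted p of the ratio was 0.143 to 0.343 (exact permutation tests).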

How the results depend on the processing

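Calcrl (log2 fold change 0.35 to 0.40) and Nmur1 (-0.30 to -0.24) passed 0.05 under 15 of 15 alternatives. Vipr2 was no longer past it with DESeq2 (0.27, adjusted p = 0.0509) and upper-quartile factors (0.24, edgeR adjusted p = 0.0562), and ran from 0.18 to 0.33 with single libraries left out. Ramp1 was lost with DESeq2 (0.17, adjusted p = 0.0775), upper-quartile factors (0.14, edgeR adjusted p = 0.107) and library size only (0.14, edgeR adjusted p = 0.0848), and ran from 0.14 to 0.21 with single libraries left out. Members past the threshold numbered 2 with DESeq2 or upper-quartile factors and 2 to 4 with single libraries left out, and related receptors numbered 5 with DESeq2 and 5 to 8. Without Yoda1 replicate 3 or DMSO replicate 4 the related receptors numbered 5. Near-zero changes turned sign: Ramp3 (-0.0087) and Cysltr1 (-0.0023) with upper-quartile factors, Ramp3 between -0.011 and 0.042 and Ptger4 between -0.038 and 0.0064 with single libraries left out. Over all genes, upper-quartile factors gave 505 higher and 958 lower, and library size only gave 553 and 809, beside 739 and 592, with the median shifted by -0.031 and -0.022 on the log2 scale. With single libraries left out, 367 to 677 were lower (367 without DMSO replicate 2 and 374 without Yoda1 replicate 4). By coding length, 2 of the 9 members kept their rank. The cause was not tested.

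Deviations of same-numbered libraries correlated at 0.047, 0.072, -0.029 and 0.0021, and only replicate 2 of 4 correlated best with its own number. The labels give only a number, and these values cannot show whether same-numbered libraries were made together. With the replicate block, 966 genes and 3 members passed, and Ramp1 was at 0.17 (edgeR adjusted p = 0.0554). Paired sign-flip tests gave differences of -0.21 for Ramp1 to Calcrl and -0.36 for Ramp3 to Calcrl (exact, adjusted p = 0.188 for both), a design of 4 pairs that allows no p below 0.125. With single libraries left out, the ratio differences ran from -0.24 to -0.17 for Ramp1 to Calcrl, from -0.39 to -0.34 for Ramp3 to Calcrl and from -0.23 to -0.12 for Ramp3 to Ramp1. Depth limits Ptgdr2, Ptgdr and Ptger3, whose intervals or counts leave changes of either direction possible.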
